A study of Mus musculus with 6 samples.

Results

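Lysosomal enzymes and membrane proteins were examined in haematopoietic stem cells of mice that lack Hlf and of wild-type littermates. The members were 37 genes taken by name, of 23574 genes counted. They were 9 lysosomal proteases, 11 glycosidases and other enzymes of sugar and glycosaminoglycan breakdown, a lipid group of 8, and 9 membrane proteins. The lipid group held lipid hydrolases and lipid-handling proteins, and Grn was placed in it. Hlf encodes a PAR bZIP transcription factor, and the study asked how its loss alters stem cells. All mice were C57BL/6, and the genotypes were wild type and HLF KO with 3 libraries each. Every library was made from total RNA of 3000 freshly isolated cells sorted as Lin- Sca+ c-Kit+ CD34-Flt3-. The age of the mice, the part of Hlf removed and whether each library came from its own animal were not given in the sources used here. The p-values therefore measure only the spread between libraries, part of which may be technical.

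The lysosome is an acidic compartment in which proteases, glycosidases, lipases and sulphatases break down material delivered by endocytosis and autophagy. Its membrane carries heavily glycosylated proteins, transporters and ion channels, and a V-type proton pump keeps its interior acidic. Many lysosomal genes are under the control of the MiT/TFE transcription factors, such as TFEB, which recognise a sequence built around CACGTG. In quiescent haematopoietic stem cells lysosomes are known to be large and slow to degrade their contents, and lysosomal activity is tied to the balance between rest and activation.

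Below, 6 members are shown with a stretch of 100 bases from upstream of their RefSeq transcription start (build GRCm38.p6), with CACGTG in capitals. They are shown because Grn, Sgsh and Naglu had the smallest p-values among the members and Mcoln1 did not overlap between genotypes. Ctsd and Lamp1 were taken as abundant members that hold CACGTG. Laptm5 and Ctsb had higher mean CPM than Lamp1, were not among the members found with CACGTG, and are not shown. Apart from that of Grn, the stretches were placed to hold CACGTG, so they do not show how common it is among members. The stretches lie at chr11:102430407-102430506 (plus strand, Grn), chr11:119355511-119355610 (minus strand, Sgsh), chr11:101069981-101070080 (plus strand, Naglu), chr8:3500419-3500518 (plus strand, Mcoln1), chr7:142387866-142387965 (minus strand, Ctsd) and chr8:13159061-13159160 (plus strand, Lamp1).
Grn: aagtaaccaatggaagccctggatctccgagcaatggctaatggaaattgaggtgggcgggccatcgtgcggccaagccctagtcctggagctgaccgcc
Sgsh: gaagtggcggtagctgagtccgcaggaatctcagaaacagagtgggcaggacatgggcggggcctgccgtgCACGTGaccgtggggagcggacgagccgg
Naglu: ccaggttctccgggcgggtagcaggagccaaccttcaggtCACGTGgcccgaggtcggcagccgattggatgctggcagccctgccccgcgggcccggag
Mcoln1: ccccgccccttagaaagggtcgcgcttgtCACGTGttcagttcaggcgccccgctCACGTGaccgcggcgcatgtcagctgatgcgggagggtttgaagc
Ctsd: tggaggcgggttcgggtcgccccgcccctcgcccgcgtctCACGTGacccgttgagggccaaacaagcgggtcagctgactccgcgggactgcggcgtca
Lamp1: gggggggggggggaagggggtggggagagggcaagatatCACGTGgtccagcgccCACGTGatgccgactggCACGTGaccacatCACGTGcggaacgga

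Promoter windows of 300 bases, from 250 before to 50 after the start, were matched by symbol for 33 of the 37 members. CACGTG, which reads the same on both strands, was found in windows of 9 of these 33 genes (27.3%), against 8.09% of all 27025 genes with a window. The members were Ctsa, Ctsd, Ctsl, Gaa, Glb1, Lamp1, Mcoln1, Naglu and Sgsh. The longer TCACGTGA, which contains CACGTG, was found for Ctsa, Ctsd and Mcoln1, 3 genes (9.09%) against 1.12% of all genes. Lamp1 held 4 copies of CACGTG within the 100 bases shown, and Grn held 0. The longer CLEAR consensus recognised by TFEB, which holds TCACGTGA within it, was found for 0 members and 0.370% of all genes. The sites of PAR bZIP factors, searched on both strands as TTACGTAA and as TTATGTAA (TTACATAA on the other strand), were found for 0 members, against 0.126% and 1.11% of all genes. These are matches of letters in a short window and say nothing of binding.

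The libraries held 8346335 to 11998296 counts, with the knockout libraries all deeper than the wild-type ones. For Hlf itself 10768, 15982 and 10055 counts were found in wild-type libraries, against 309, 399 and 431 in knockout libraries, a log2 fold change of -5.33 (SE 0.26, edgeR quasi-likelihood test, adjusted p = 1.9e-06). The members took 0.354% to 0.454% of all counts in wild-type libraries and 0.346% to 0.395% in knockout libraries. The stem cell markers other than Hlf summed to 681 to 746 CPM in wild type and 569 to 781 CPM in knockout, which overlap. Single markers within this sum went both ways. By edgeR log2 fold change, Procr (-1.69), Mecom (-0.83) and Fgd5 (-1.02) were lower and Mycn (1.22) was higher. At an unadjusted p under 0.05, 4 of 10 tested markers were lower, Hlf among them, and 1 was higher. The shares over all genes were 4.65% and 2.63%, and Hlf alone passed after adjustment.

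Wild-type library 3 stood apart in markers of granulocytes and monocytes and of B and plasma cells. The 13 granulocyte and monocyte markers summed to 3418 CPM (depth-normalised counts, using TMM factors) in that library, to 634 and 636 CPM in wild-type libraries 1 and 2, and to 326 to 488 CPM in knockout libraries. The 9 B and plasma cell markers summed to 5611 CPM there, to 2020 and 724 CPM in wild-type libraries 1 and 2, and to 130 to 300 CPM in knockout. The 12 macrophage markers found summed to 80.3 to 103 CPM in wild type and to 22.9 to 76.5 CPM in knockout, and the defining Adgre1 was at 0 in all libraries but knockout library 2 (0.188 CPM). The sums for dendritic cells and antigen presentation were 697, 508 and 300 CPM in wild-type libraries 1 to 3 and 239 to 420 CPM in knockout. Of that list, the dendritic cell genes Itgax and Siglech were at most 1.11 and 0.111 CPM in any library. The mast cell and basophil markers were summed without Gata2, which stem cells also express. They came to 175, 53.1 and 58.7 CPM in wild-type libraries 1 to 3 and to 39.8 to 80.4 CPM in knockout. The basophil genes Prss34 (36.5 CPM) and Mcpt8 (12.5 CPM) were highest in wild-type library 3 and at most 0.732 CPM in the other libraries. Cpa3 of the same list went the other way and was lowest in wild-type library 3. It stood at 175, 51.8 and 9.64 CPM in wild-type libraries 1 to 3 and at 77.2, 56.8 and 39.8 CPM in knockout. Lysosomal genes are expressed in all of these cells, and the part of the markers in the values below was not tested. In bulk RNA, fewer cells of a type and less RNA per cell cannot be told apart.

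Of the 37 members, 31 passed the filter on low counts. These were all 30 members with a single listed RefSeq transcript, and Lamp2. The other 6 have several listed transcripts, and over the 6 libraries they had totals of 0 counts (Ctss), 3 (Ctsa), 5 (Lipa), 11 (Psap), 18 (Cd63) and 72 (Gaa). Genes with 2 listed transcripts had a median of 3 counts in these files, against 79 for genes with 1, so these 6 totals are not read as low expression. Ctss (cathepsin S), Ctsa (protective protein of the galactosidase complex), Lipa (acid lipase), Psap (precursor of the saposins), Cd63 (a tetraspanin of late endosomes) and Gaa (acid alpha-glucosidase) were not tested.

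No member passed the test of knockout against wild type (0 of 31 at an adjusted p under 0.05 by edgeR). Over all genes that test called 0.0098%, which was Hlf alone, and DESeq2 and limma-voom, which called 1.26% and 0.0098% of all genes, also called 0 members. At such shares 0 of 31 does not set the members apart from other genes. The smallest adjusted p among members was 0.49, for Grn. At an unadjusted p under 0.05 there were 2 members, 1 with higher values in knockout (Sgsh) and 1 with lower values (Grn), against 2.63% of all genes higher, 4.65% lower and 7.27% in either direction. The genotypes did not overlap in CPM for 3 members, Sgsh on the higher side and Grn and Mcoln1 on the lower, against 7.52% and 6.85% of all genes, or 14.4% in either direction. Both counts are at or below the background.

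The values leaned to the lower side in knockout without any member being called. Of 31 tested members 22 had negative and 9 positive log2 fold changes, with a median of -0.23 against -0.05 over all genes tested, of which 47.2% were positive. The highest of the 6 libraries was a wild-type one for 26 of 31 members (83.9%), against 60.2% of all genes. It was wild-type library 1 for 13 members and wild-type library 3 for 11. The lowest library was also a wild-type one for 17 members (54.8%), against 63.2% of all genes. The median was -0.06 without wild-type library 1 and -0.39 without wild-type library 2, with 12 and 9 positive members. It was -0.21 without wild-type library 3, -0.34 without knockout library 1, -0.17 without knockout library 2 and -0.21 without knockout library 3.

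**Figure D1:**
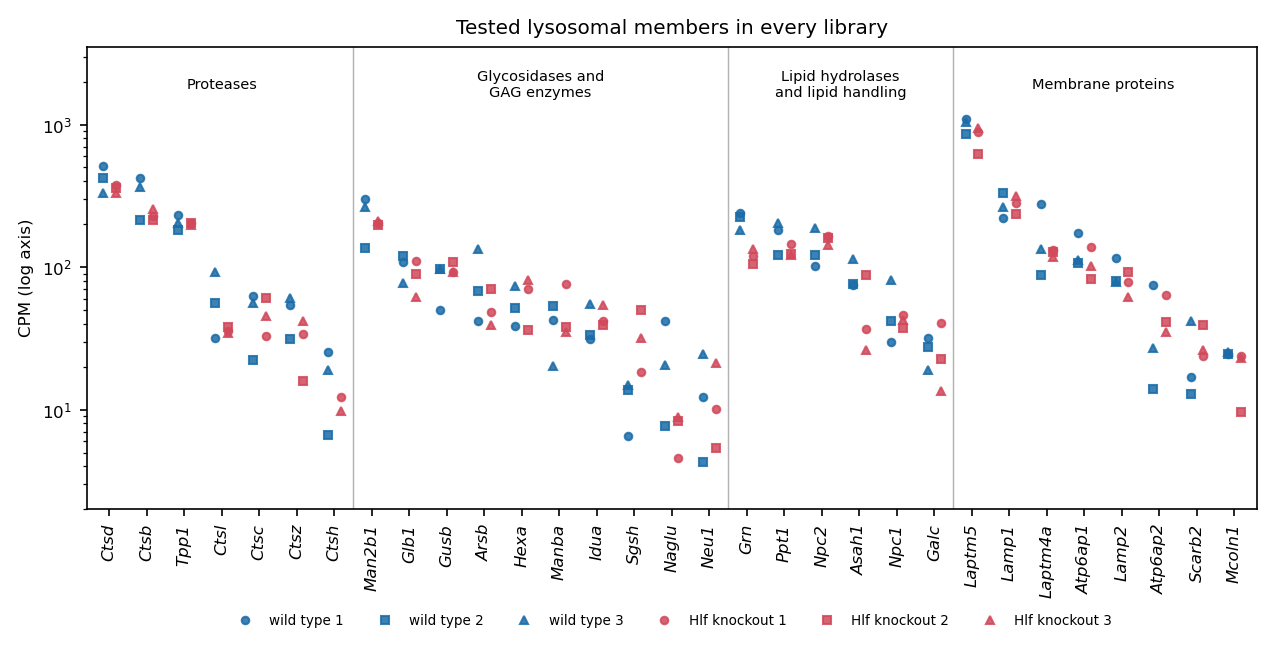
CPM of each tested member in each library on a log axis, grouped by role and ordered by mean level, with wild-type libraries in blue and knockout libraries in red. Ctsh in knockout library 2, at 0 counts, cannot be drawn; genotypes overlap for all members except Grn, Sgsh and Mcoln1.

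Levels per kilobase of transcript, with transcript lengths from GENCODE, give an approximate order of the genes. Exon bases shared with other genes and the unknown counting of shared reads were not corrected for. In wild type the highest was Laptm5, a transmembrane protein of blood cell lysosomes, at 385 CPM per kilobase. It was followed by the aspartic protease Ctsd (198), the main membrane glycoprotein Lamp1 (122), Laptm4a (93.6) and Grn (91.9). The lowest tested members were Sgsh (2.67), Scarb2 (5.09), which carries glucocerebrosidase to lysosomes, and Neu1 (5.55), the lysosomal sialidase. In knockout the order at the top was Laptm5 (314), Ctsd (168), Lamp1 (125) and Laptm4a (71.2).

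Among the proteases, all 7 tested members had negative log2 fold changes and 0 passed, with a median of -0.52. Ctsd, which starts the breakdown of many proteins in the lysosome, stood at 511, 421 and 329 CPM in wild-type libraries 1 to 3 and at 375, 361 and 333 CPM in knockout. The knockout libraries lay inside the wild-type range, and the log2 fold change was -0.24 (SE 0.22). It was -0.059 without wild-type library 1 and -0.385 without wild-type library 3. Tpp1, a tripeptidyl peptidase, stood at 231, 182 and 205 CPM in wild type and at 205, 204 and 198 CPM in knockout. It was the most even member, with a log2 fold change of -0.02 (95% interval -0.54 to 0.49).

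Ctsb, a cysteine protease, stood at 421, 215 and 364 CPM in wild type and at 229, 215 and 256 CPM in knockout. Wild-type libraries 1 and 3 were above all others, while wild-type library 2 was level with the lowest knockout library. With SE 0.27 the log2 fold change was -0.52 (edgeR adjusted p = 0.70). It was -0.30 without wild-type library 1 and -0.74 without wild-type library 2. Ctsl, another cysteine protease, stood at 32.1, 55.7 and 93.0 CPM in wild type and at 35.5, 37.8 and 34.5 CPM in knockout. Its log2 fold change of -0.75 (SE 0.48) was -0.29 without wild-type library 3 and -1.035 without wild-type library 1. Ctsl, Naglu and Asah1 were chosen for this detail after their values were seen.

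The other proteases were Ctsc (-0.03), which activates granule serine proteases, Ctsz (-0.67, SE 0.53) and Ctsh (-1.22, SE 1.35). Without knockout library 2 they were -0.35 for Ctsz and -0.63 for Ctsh. Ctsh, an aminopeptidase, had 0 counts in knockout library 2, which allows up to 0.283 CPM at 3 counts, and stood at 6.66 to 25.6 CPM in the other 5 libraries. The protease group summed to 1338, 934 and 1127 CPM in wild type and to 924, 895 and 918 CPM in knockout. These sums do not overlap, although wild-type library 2 lies just above knockout library 1. Without Ctsb and Ctsd, the most abundant of the group, the sums were 298 to 434 CPM in wild type and 319 to 329 CPM in knockout.

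Some proteases share exon bases with other genes in GENCODE, and the use of strand in counting was not given in the sources used here. The shared part was 31.5% of exon bases for Ctsd (a protein-coding gene on the same strand), 28.2% for Ctsl and 16.3% for Ctsb (genes on the opposite strand). Reads of these genes and their partners may not be told apart. Fdft1, the partner of Ctsb, stood at 8.40 to 41.3 CPM.

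Enzymes of sugar and glycosaminoglycan breakdown went both ways, with 5 positive and 5 negative members, 0 called and a median log2 fold change of 0.01. Man2b1, the lysosomal alpha-mannosidase, stood at 301, 137 and 265 CPM in wild type and at 203, 199 and 209 CPM in knockout. The knockout libraries were nearly equal and lay within the wild-type range (log2 fold change -0.20, SE 0.30). Glb1, the acid beta-galactosidase, stood at 109, 119 and 77.6 CPM in wild type and at 111, 89.3 and 61.6 CPM in knockout (-0.22, SE 0.36). Gusb, the beta-glucuronidase, stood at 49.9, 97.1 and 97.1 CPM in wild type and at 92.3, 108 and 92.2 CPM in knockout (0.26, SE 0.36). For both genes the genotypes overlapped. Glb1 shares 6.89% of its exon bases with the protein-coding Tmppe on the same strand. Tmppe stood at 24.4, 36.7 and 90.3 CPM in wild type and at 43.5, 41.1 and 68.3 CPM in knockout. Whether reads of Tmppe were counted for Glb1 was not tested.

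Sgsh and Naglu act on the same substrate, heparan sulphate, as a sulphatase and as a glucosaminidase, and had values in opposite directions. Sgsh stood at 6.49, 13.6 and 14.8 CPM in wild type , a mean of 11.7 ± 4.51 (SD, n = 3). In knockout it stood at 18.4, 49.6 and 31.8 CPM, a mean of 33.3 ± 15.7 (SD, n = 3). Each knockout library was above every wild-type library, and knockout library 2 was the highest. The fold change was 2.85 (log2 1.51, SE 0.68, 95% interval 0.02 to 3.00), with an edgeR adjusted p of 0.68, and the log2 value was 1.12 without knockout library 2. Exons of Sgsh share 21.9% of their bases with Card14 on the opposite strand, and Card14 had at most 3 counts in any library. How shared reads were counted is not known, and whether reads of Card14 were counted for Sgsh was not tested.

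Naglu stood at 41.9, 7.70 and 20.5 CPM in wild type and at 4.57, 8.29 and 8.83 CPM in knockout. Wild-type library 1 was far above the rest, and wild-type library 2 lay among the knockout libraries. Its log2 fold change was -1.69 with SE 0.85 (95% interval -3.55 to 0.17, edgeR adjusted p = 0.69), with -0.95 without wild-type library 1 and -2.10 without wild-type library 2. The iduronidase Idua stood at 0.18 (SE 0.47), with 0.027 without knockout library 3 and 0.48 without wild-type library 3. The sulphatase Arsb stood at -0.64 (SE 0.48), with -0.070 without wild-type library 3 and -0.93 without wild-type library 1. Arsb shares 48.2% of its exon bases with a long non-coding RNA on the opposite strand. The remaining glycosidases were the hexosaminidase subunit Hexa (0.18), the beta-mannosidase Manba (0.36) and Neu1 (-0.16, SE 0.93).

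**Figure D2:**
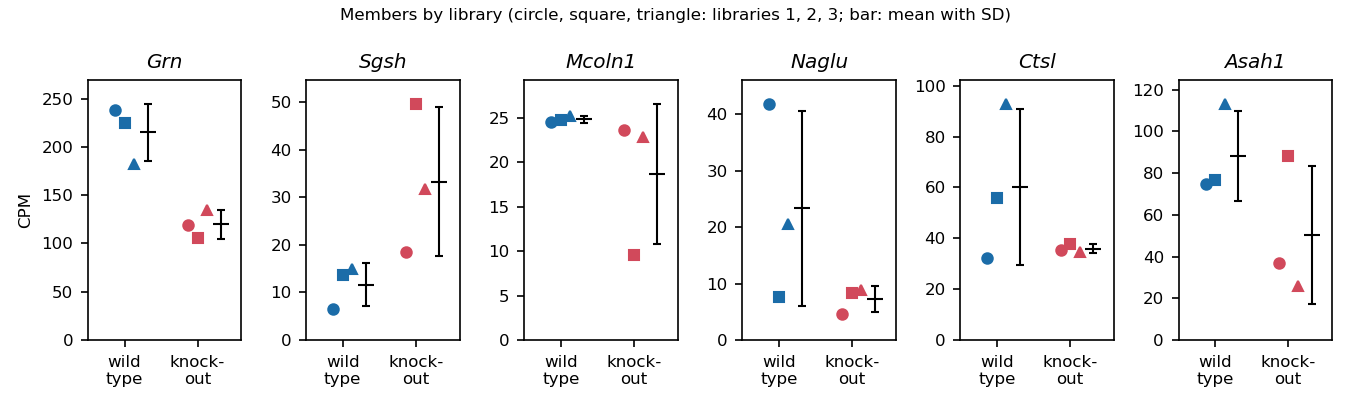
CPM of 6 members by library, with a linear axis from 0 for each gene and the mean with its SD (n = 3) beside each genotype. Grn, Sgsh and Mcoln1 do not overlap between genotypes, and single libraries stand far from the others of their genotype for Naglu (wild-type library 1), Ctsl (wild-type library 3), Asah1 (knockout library 2) and Mcoln1 (knockout library 2).

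In the lipid group, in which Grn was placed, 5 of 6 tested members were negative, 0 passed, and the median log2 fold change was -0.33. Grn, which encodes progranulin, a secreted and lysosomal protein that is cut into granulins, stood at 238, 225 and 182 CPM in wild-type libraries, with a mean of 215 ± 29.6 (SD, n = 3). In knockout it stood at 119, 105 and 134 CPM, with a mean of 120 ± 14.6 (SD, n = 3). Each knockout library was below every wild-type library, with a 1.80-fold lower mean. This is a log2 fold change of -0.85 (SE 0.26, 95% interval -1.42 to -0.27). The edgeR adjusted p was 0.49 and the DESeq2 adjusted p was 0.13. With each library left out in turn it lay between -0.95 and -0.75, the value of largest size coming without wild-type library 3. Grn, Naglu and Mcoln1 share no exon bases with another protein-coding or long non-coding gene in GENCODE.

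Ppt1, a palmitoyl-protein thioesterase, stood at 182, 123 and 204 CPM in wild type and at 146, 124 and 121 CPM in knockout, a log2 fold change of -0.38 (SE 0.29). Npc2, the soluble cholesterol carrier of the lysosome, stood at 102, 121 and 188 CPM in wild type and at 165, 159 and 144 CPM in knockout. The knockout libraries lay within the wild-type range (0.19, SE 0.30), and its membrane partner Npc1 stood at -0.27 (SE 0.48). Asah1, the acid ceramidase, stood at 74.9, 76.5 and 113 CPM in wild type and at 37.1, 88.2 and 26.1 CPM in knockout. Knockout library 2 lay among the wild-type libraries, and the log2 fold change of -0.81 (SE 0.49, edgeR adjusted p = 0.73) was -1.47 without it and -0.49 without knockout library 3. Galc, the galactosylceramidase, stood at -0.03 (SE 0.62).

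The lipid group summed to 660, 614 and 786 CPM in wild type and to 554, 536 and 482 CPM in knockout, with no overlap. Without Grn the sums were 389 to 605 CPM in wild type and 347 to 435 CPM in knockout, which overlap.

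**Figure D3:**
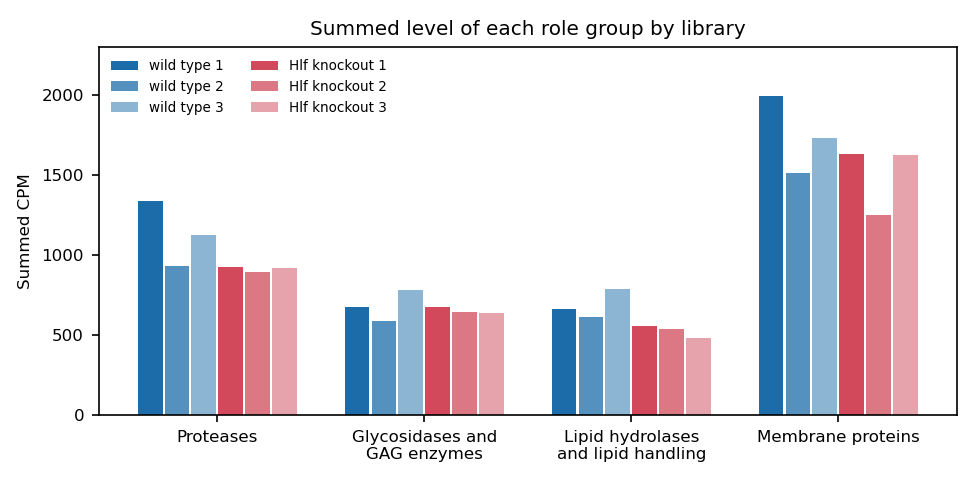
Summed CPM of the members of each role group in each library, with bars from 0, wild-type libraries in blue shades and knockout libraries in red shades. Knockout sums lie below the wild-type sums for the proteases and the lipid group, and overlap with them for the glycosidases and the membrane proteins. Without Grn the sums of the lipid group overlap, as do those of the proteases without Ctsb and Ctsd.

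Among the membrane proteins 5 of 8 tested members were negative, 0 passed, and the median log2 fold change was -0.26. Laptm5 stood at 1095, 854 and 1050 CPM in wild type and at 889, 618 and 940 CPM in knockout. Knockout library 2 was the lowest, and the genotypes overlapped (log2 fold change -0.29, SE 0.21). Lamp1 stood at 221, 329 and 265 CPM in wild type and at 281, 237 and 317 CPM in knockout, a log2 fold change of 0.04 with a 95% interval of -0.49 to 0.56. Laptm4a stood at 276, 87.7 and 134 CPM in wild type and at 132, 128 and 118 CPM in knockout. Its value of -0.39 (SE 0.39) rested on wild-type library 1 and was 0.20 without it.

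Mcoln1, a calcium-conducting channel of the lysosomal membrane, stood at 24.6, 24.8 and 25.3 CPM in wild type and at 23.7, 9.61 and 22.9 CPM in knockout. The genotypes did not overlap, but knockout libraries 1 and 3 lay just below the wild-type ones, and knockout library 2 was far lower. With SE 0.64 the log2 fold change was -0.41 (edgeR adjusted p = 0.93), and it was -0.08 without knockout library 2 and -0.60 without knockout library 1. The accessory subunits of the proton pump, Atp6ap1 and Atp6ap2, stood at -0.28 (SE 0.33) and 0.27 (SE 0.61), and Scarb2 at 0.32 (SE 0.63). Atp6ap1 was -0.017 without wild-type library 1 and -0.49 without knockout library 1, and Scarb2 was 0.024 without wild-type library 2 and 0.997 without wild-type library 3.

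Lamp2, a membrane glycoprotein with a part in autophagy, was the only member with several listed transcripts that passed the filter, at a log2 fold change of -0.23 (SE 0.35), with -0.0079 without wild-type library 1 and -0.36 without knockout library 2. The less abundant of its 2 listed transcripts held 6.30%, 2.75% and 10.5% of all Lamp2 counts in the wild-type libraries. In the knockout libraries it held 11.7%, 5.71% and 11.9%. The exact Clopper-Pearson 95% intervals ran from 1.71% to 4.17% in wild-type library 2 and from 9.59% to 14.5% in knockout library 3, and cover counting error only. The genotypes overlapped in this share. The less abundant transcript has 1769 bases and the other 3604, and how reads shared by both were counted is not known. These are shares of counts and not of transcript amounts, and the level of Lamp2 has the same limit.

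The spread set what could be seen. The median SE of a log2 fold change was 0.47 over the tested members, against 0.59 over all genes. The 95% interval lay within a 2-fold change either way for 7 members (Ctsd, Lamp1, Lamp2, Laptm5, Man2b1, Npc2 and Tpp1), and reached past it for the other 24. Single libraries also moved other members. Glb1 was -0.019 without knockout library 3 and -0.43 without knockout library 1. Gusb was 0.020 without wild-type library 1 and 0.42 without wild-type library 2. Npc2 was 0.031 without wild-type library 1 and 0.49 without wild-type library 3. These 3 kept their sign, as did Ppt1, at -0.23 without wild-type library 3, and Laptm5, at -0.12 without knockout library 2. The members varied more in wild type than in knockout, with a median coefficient of variation of 32.7% and 26.0%, against 49.9% and 31.8% over all genes.

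**Figure D4:**
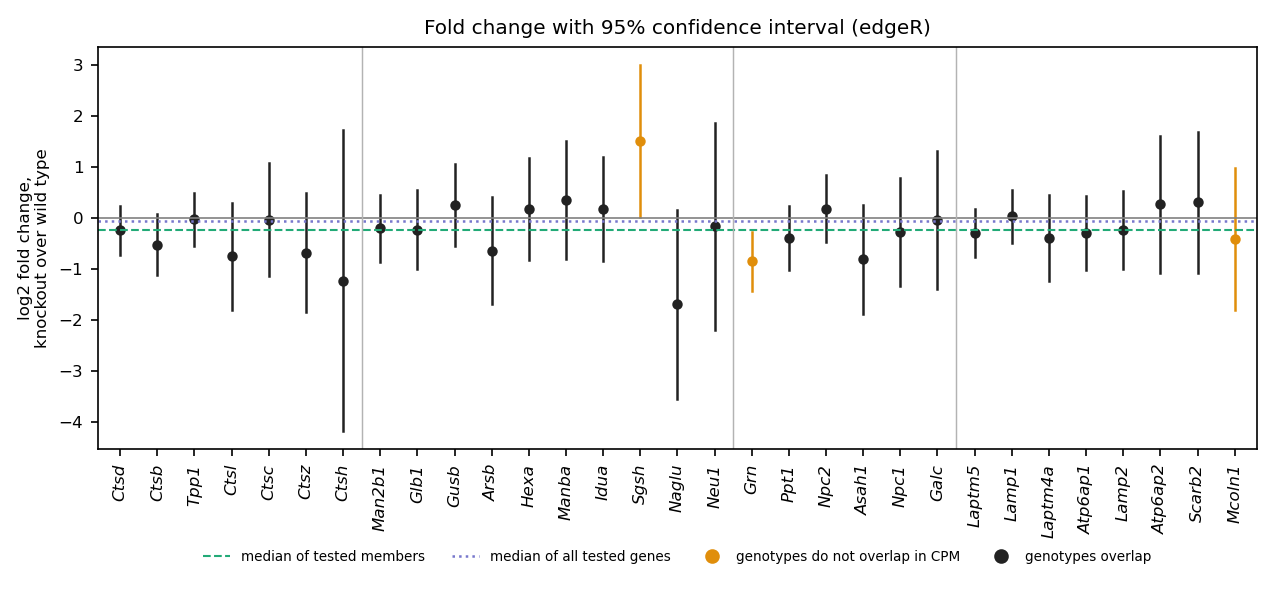
Log2 fold change of knockout over wild type for each tested member, with 95% confidence intervals from edgeR and dashed and dotted lines at the median of the members (-0.23) and of all genes (-0.05). The intervals of Grn and Sgsh exclude 0 before adjustment for the number of genes, and 0 members passed after it.

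The other genes of the pathway were read from 5 further lists. None of their tested members passed edgeR's test, which called 0.0098% of all genes. Of 34 further lysosomal hydrolases and membrane proteins, 26 were tested, with 8 positive, 18 negative and a median log2 fold change of -0.36. At an unadjusted p under 0.05 there were 0 of the 26, against 7.27% of all genes, which with so few genes is not read as a result about the list. The 3 of smallest p were the cysteine protease Ctso (-0.89, SE 0.42), the cystine exporter Ctns (-1.32, SE 0.63) and the carboxypeptidase Scpep1 (-0.84, SE 0.51). Ctns stood at 38.8, 21.3 and 34.6 CPM in wild type and at 10.2, 11.3 and 16.4 CPM in knockout, with no overlap.

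The subunits of the proton pump were balanced, with 7 of 12 tested members positive and a median of 0.02. Atp6v1d stood at -0.62 (SE 0.34), Atp6v0e at 0.47 (SE 0.33) and Atp6v1h at -0.60 (SE 0.43). Genes that sort enzymes to the lysosome were balanced too, with 10 of 19 positive and a median of 0.01. Igf2r, a receptor that carries mannose 6-phosphate tagged enzymes, stood at 104, 52.6 and 68.0 CPM in wild type and at 48.7, 28.6 and 34.9 CPM in knockout. These did not overlap, and the log2 value was -0.998 (SE 0.44, edgeR adjusted p = 0.68). The tethering subunits Vps33a and Vps18 stood at 1.27 (SE 0.72) and -1.30 (SE 0.87).

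Among the MiT/TFE factors and the regulators of mTORC1 at the lysosome, 17 of 26 were tested, with 7 positive, 10 negative and a median of -0.30. Of the factors Tfec alone was tested. Tfeb, Tfe3 and Mitf have several listed transcripts, held at most 3, 2 and 24 counts in any library and were not tested. As for the untested members, these counts are not read as low expression. Tsc1, which restrains mTORC1, stood at 135, 142 and 87.5 CPM in wild type and at 47.3, 53.2 and 70.3 CPM in knockout. All knockout libraries were lower, with a log2 fold change of -1.09 (SE 0.36, edgeR adjusted p = 0.52). The transcription factor Tfec stood at -0.81 (SE 0.58) and Nprl2, which acts in amino acid sensing, at 0.92 (SE 0.71).

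Autophagy genes had 5 positive and 16 negative values among 21 tested, with a median of -0.22. Ulk1, the kinase that starts autophagy, stood at 285, 227 and 302 CPM in wild type and at 167, 132 and 109 CPM in knockout. All knockout libraries were lower, and the log2 value was -0.997 (SE 0.26). It did not pass by edgeR (adjusted p = 0.47) and passed by DESeq2 (adjusted p = 0.045), which called 1.26% of all genes. Atg9a, a membrane protein that feeds the growing autophagosome, stood at 12.2, 9.05 and 28.1 CPM in wild type and at 57.5, 32.5 and 40.3 CPM in knockout (1.40, SE 0.62, edgeR adjusted p = 0.68). Atg3 stood at -0.65 (SE 0.41).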

How the data were processed

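RNA was sequenced from 3 wild-type and 3 Hlf knockout libraries with TruSeq kits, per the labels' protocols. The authors deposited raw read counts per RefSeq transcript (30858 in each library). TopHat and the mouse build mm9 are named per the submitters' processing notes, and the counting tool, annotation release and strand setting were not given in the sources used here. Counts were summed per gene symbol, taken from a RefSeq table of GRCm38.p6 for 30363 transcripts and from GENCODE for 179, while 316 kept their accession. Low counts of genes with several listed transcripts limit what is measured. Promoter sequences are RefSeq's, and transcript lengths and exon overlaps come from GENCODE M21.

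Knockout was compared with wild type by edgeR 4.0.16 (R 4.3.3; TMM, filterByExpr with minimum count 10 and minimum total 15, robust quasi-likelihood F test, no covariates) over 10204 genes, with Benjamini-Hochberg adjustment over all of them. An adjusted p under 0.05 was a call. Standard errors come from the F statistic. DESeq2 1.42.0, limma 3.58.1 (voom), RLE factors, other filters, thinning, a replicate block and leaving out each library were alternatives. The fits were tested on simulated data. Values in every library are given for members with an unadjusted p under 0.05 or without overlap, and for the 3 most abundant of each role group. Of each other pathway list the 3 genes of smallest p are named. The members and lists were chosen with earlier results of these data known.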

Additional observations from a re-analysis of the deposited data

How the results depend on the processing

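The count of members called was 0 under all 13 alternatives. The count over all genes was 1 as reported, 120 by DESeq2, 9 without a filter on low counts, 2 with the replicate number as a block and 1 to 3 with 1 library left out. Same-numbered libraries did not deviate together (correlations -0.01, -0.02 and 0.02), so the numbers were not taken as pairs, and with the replicate block the median member value was -0.22. That median lay between -0.25 and -0.19 under the 7 alternatives that keep all libraries and between -0.39 and -0.06 with 1 left out. The sign held under all 13 alternatives for 20 members, 15 negative and 5 positive. It turned for Ctsc under limma-voom (0.10) and the block (0.044). With 1 library left out the sign turned for 11 members, with ranges of -0.36 to 0.25 for Ctsc, -0.097 to 0.082 for Tpp1, -0.045 to 0.47 for Hexa, -0.46 to 0.035 for Man2b1, -0.53 to 0.28 for Galc, -0.077 to 0.21 for Lamp1, -0.69 to 0.20 for Laptm4a, -0.12 to 1.19 for Atp6ap2, -0.82 to 0.58 for Neu1, -0.53 to 0.23 for Npc1 and -0.081 to 0.67 for Manba. All were within 0.39 of 0 with all libraries. The cause was not tested. The 3 libraries per genotype and their spread limit what can be called.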

Other observations

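The 3 tested members with the smallest p, Grn, Sgsh and Naglu, all lie on chromosome 11, which also carries Hlf (RefSeq, GRCm38.p6). This was seen after their values were known. Of the 37 members 4 lie on this chromosome, the other being the untested Gaa. The log2 fold changes went both ways, at -0.85, 1.51 and -1.69. Over all tested genes of chromosome 11, Hlf aside, 70 of 838 (8.35%) had an unadjusted p under 0.05, which ranked 7 among 20 chromosomes whose shares ran from 3.88% to 9.70%. The genotypes did not overlap for 16.1% of chromosome 11 genes, against 14.4% of all genes.

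Among the marker lists the 3 genes of smallest p in each were as follows, as log2 fold changes by edgeR. For granulocytes and monocytes they were Prtn3 (-5.07), the lysozyme gene Lyz2 (-0.86) and Ly6c2 (-2.40). Lyz2, a lysosomal and granule enzyme of myeloid cells, stood at 372, 501 and 668 CPM in wild type and at 241, 197 and 413 CPM in knockout. For B and plasma cells they were Pou2af1 (-4.18), Vpreb1 (-8.40, with 1 count in knockout) and Jchain (-3.93), and for macrophages Mrc1 (-1.84), Mertk (-2.72) and Vcam1 (-1.94). The macrophage list went both ways, with 3 of 7 tested genes positive, the complement genes C1qa (3.03), C1qb (0.79) and C1qc (0.39). For antigen presentation they were H2-Aa (-1.04), Irf8 (-2.34) and H2-Ab1 (-0.64), and for mast cells and basophils the 2 tested genes were Cpa3 (-0.45) and Gata2 (0.10). For stem cells they were Hlf, Mycn (1.22) and Procr (-1.69). Of these Hlf alone passed edgeR's test, and DESeq2 also called Prtn3, Pou2af1, Vpreb1 and Jchain.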
